A study of Mus musculus with 12 samples.

Results

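The proteasome genes described here are the 50 genes whose symbols in the platform annotation begin with Psma, Psmb, Psmc, Psmd, Psme, Psmf or Psmg and a number, out of 19938 genes measured. Where several probe sets read a gene, the one of highest mean is used, and values are in log2 units. The cells were mouse cumulus cells, granulosa-type cells that enclose the oocyte, and there were 12 microarrays in 3 groups of 4. Whole cumulus-oocyte complexes from female 129SV mice aged 21 to 26 days, taken 44 h after 5 IU of equine chorionic gonadotropin, were cultured for 8 h, and the oocytes were then stripped off. The control group had 0.125% by volume of 293H control medium. The FSH/EGF group was given the same medium plus 50 mIU/ml of follicle-stimulating hormone (FSH) and 10 ng/ml of epidermal growth factor (EGF). This hormone and this growth factor are used together to mature complexes in culture. The GDF9 group had 20 ng/ml of GDF9, an oocyte-secreted factor of the TGF-beta family, and its labels do not name 293H medium as well. The complexes of every group were primed in the animal, were collected in 1 µM cilostamide, a phosphodiesterase inhibitor, and held their oocytes during culture. For every group 11 mM glucose and 100 µM cysteamine are given as well. Each array carried RNA pooled from 2 of 8 separately extracted cultures, so the tests measure the spread between such pools.

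The proteasome is the large protease that degrades proteins tagged with ubiquitin. Its 20S core is a barrel of stacked rings of alpha subunits, which gate the entry, and beta subunits, some of which cut the substrate. The 19S particle caps the barrel: the ATPases of its base unfold the substrate, and its lid removes the ubiquitin. Cells that respond to interferon exchange the cutting subunits for the immunoproteasome forms, and separate chaperones assemble the core and the base. In mouse cells the transcription factor NRF1 can raise many proteasome genes together when proteolysis falls short.

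The granulosa marker list was highest in the control and GDF9 groups and lower with FSH/EGF. Foxl2, a transcription factor that keeps granulosa identity, stood at 8.82 to 9.39 in control, 8.62 to 9.21 with GDF9 and 8.05 to 8.46 with FSH/EGF, and the mean of 9 granulosa and cumulus markers was 9.09 to 9.35, 9.09 to 9.20 and 7.81 to 7.99. With FSH/EGF 7 of the 9 markers fell and 0 rose (limma, adjusted p under 0.05), and the FSH receptor gene Fshr, at 5.18 to 5.37, and Slc38a3, at 4.87 to 5.01, lay below the array medians. Of 8 endothelial markers 2 rose, Cdh5 by 3.18 and Tek by 0.29, and the median difference of the 8 was -0.02. Of 7 theca and stroma markers 3 fell and 0 rose. The part of these shifts in the proteasome values was not tested. The mean of 16 oocyte markers was 6.07 on control array 4 and 4.91 to 5.26 on the other arrays. The mean of 10 leukocyte markers was 4.74 to 5.05, below the array medians of 5.41 to 5.53. Of these 10, Ptprc stood at 4.39 to 4.93 and Cd3e at 5.30 to 5.80 over all arrays. With FSH/EGF 2 of the 10 rose and 0 fell. Control array 1 was the least like its group, with an array weight of 0.269 against 0.485 or more elsewhere. It held the lowest control value for 18 of the 31 subunits of the 20S core and the 19S particle among these genes. Results are therefore also given without control arrays 1 and 4 where that matters.

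With FSH/EGF, nearly all genes of the proteasome's working parts rose together, most of them by less than 2-fold. Of the 50 genes, 37 were higher than in control and 5 lower (limma, adjusted p under 0.05). Among all 19938 genes, 21.9% were called higher and 14.9% lower. The median difference of the 50 genes was 0.56 on the log2 scale, and that of all genes was -0.07. Of the 31 Psm-named subunits of the 20S core and the 19S particle, 30 rose, 0 fell, and the median difference was 0.66 (1.59-fold), from 0.15 to 1.17. Sem1, a small lid subunit outside the Psm symbols, is not counted among the 31; its difference was 0.18 and not called (limma adjusted p = 0.437). Proteasome genes are strongly expressed, and 47 of the 50 lay at or above the median signal of all genes, where 37.8% of genes were called higher and 17.1% lower, with a median difference of 0.16. These arrays measure RNA per sample, so fewer cells of a type and less RNA per cell cannot be told apart.

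The 4 FSH/EGF arrays all exceeded the 4 control arrays for 38 of the 50 genes and all lay below them for 4. Over all genes, 22.4% were separated upwards in this way and 19.6% downwards. By symbol, 6 of 8 Psma genes rose and 1 fell, 7 of 11 Psmb genes rose and 2 fell, and 6 of 7 Psmc genes rose with 0 falls. All 14 Psmd genes rose, 4 of 5 Psme genes rose, the single Psmf gene was not called, and of 4 Psmg genes 0 rose and 2 fell. The genes that fell were therefore found among the Psma, Psmb and Psmg symbols. They were Psma8, Psmb9, Psmb10, Psmg2 and Psmg4.

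**Figure D1:**
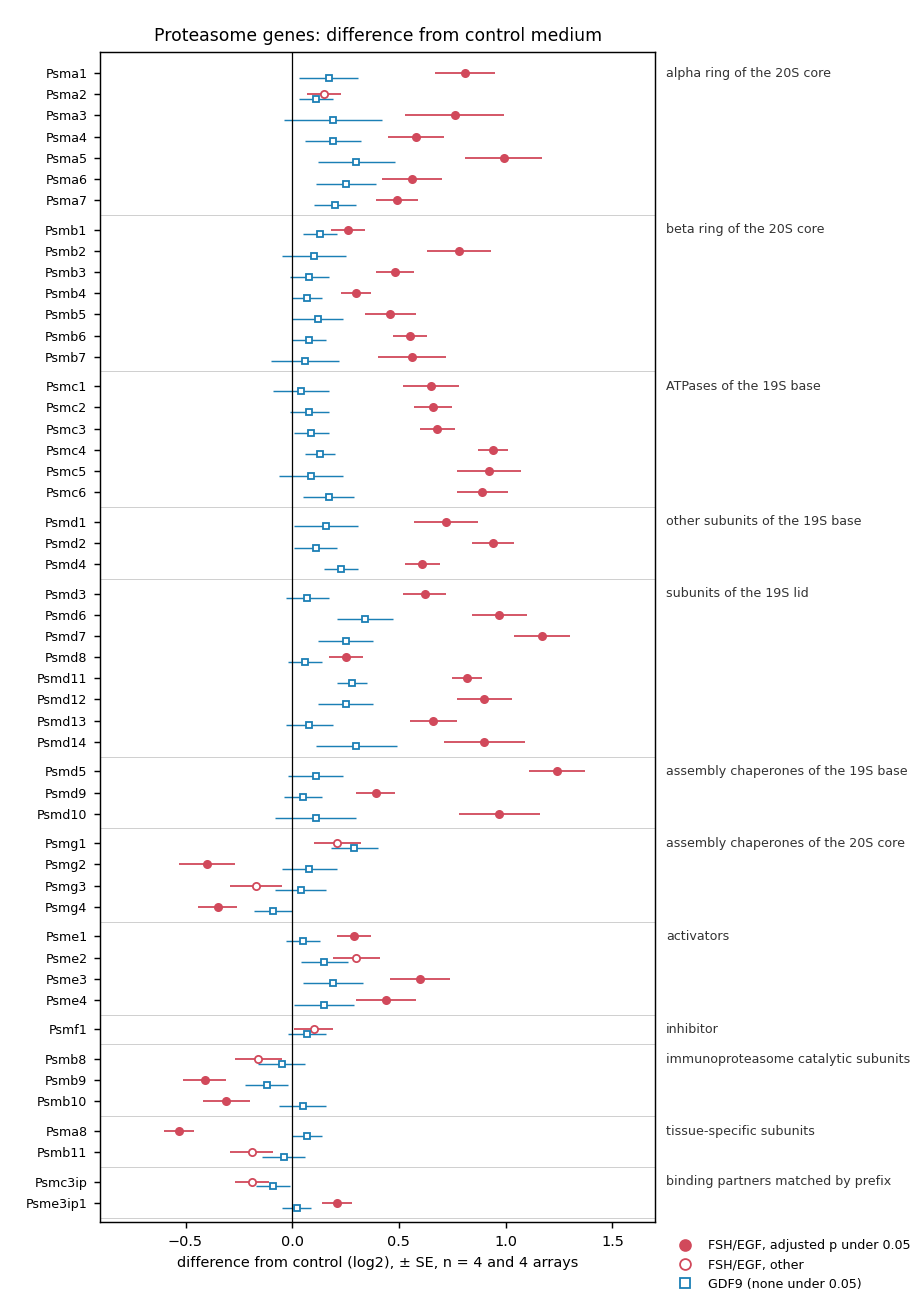
Differences from control medium of the 50 proteasome genes, on the log2 scale with standard errors (4 and 4 arrays), grouped by role; circles are FSH/EGF minus control, filled where the limma adjusted p was under 0.05, and squares are GDF9 minus control. The filled circles of the 20S core and 19S subunits lie to the right of 0, up to 1.17 for Psmd7, while those of Psmg2, Psmg4, Psmb9, Psmb10 and Psma8 lie to the left, and the squares lie between -0.12 and 0.34.

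Since the subunits rose together, their promoters were searched for the letters bound by known regulators. RefSeq windows (GRCm38.p6) of 300 bases, 250 before to 50 after the start, were given for 42 of the 50 genes. The sequence TGACNNNGC, the core of the antioxidant response element bound by NRF1 and NRF2, occurred on either strand in 6 of 42 (14.3%) and in 14% of all 27025 genes. All 6 were genes called higher with FSH/EGF: Psmb5, Psmb6, Psmc6, Psmd9, Psmd12 and Psme4, which is 6 of 31 such genes and 0 of the 11 others. This split was not tested. Most of the 42 genes were called higher, and the share of the 42 with the element was near that of all genes. No link between the element and the rise is drawn from it. The median GC content was 57.9% for the 42 genes and 52.8% for all genes. CCAAT, the box bound by NF-Y, occurred in 38.1% of the 42 and 41.1% of all genes. The interferon-stimulated response element, searched as a pair of TTTC words with any 2 bases between them, occurred in 11.9% (Psmb3, Psmd4, Psmd9, Psme1 and Psmg4) and 3.99%, and in none of the windows of the immunoproteasome genes. The only matches that overlapped in these genes were CCAAT boxes on opposite strands in Psmd14. A match is a description of letters, and binding was not measured here. The stretches before the start that hold the antioxidant element are shown because NRF1 is the known shared regulator of these genes; the match is in capitals, given 5′ to 3′ along the gene, and reads in the opposite strand's direction in Psmc6 and Psmd12.
Psmb5 (minus strand, chr14:54618014-54618062): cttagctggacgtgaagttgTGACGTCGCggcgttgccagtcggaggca
Psmb6 (plus strand, chr11:70525328-70525356): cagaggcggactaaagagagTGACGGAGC
Psmc6 (plus strand, chr14:45329577-45329625): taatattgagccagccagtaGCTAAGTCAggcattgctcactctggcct
Psmd12 (plus strand, chr11:107479278-107479309): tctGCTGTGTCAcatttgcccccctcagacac
Psmd9 (plus strand, chr5:123228139-123228187): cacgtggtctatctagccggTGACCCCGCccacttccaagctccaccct
The matches lie close to the start in Psmb6, Psmd9 and Psmb5, ending 1, 23 and 39 bases before it, and far from it in Psmc6 and Psmd12, at 219 and 239 bases. The window of Psmd5, the gene with the largest rise, held none of the 3 motifs.

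In the alpha ring, 6 of 7 genes rose, with a ring median of 0.58. Psma5 had the largest rise in the ring. It stood at 7.46, 8.06, 8.07 and 8.12 on the 4 control arrays, at 8.55, 8.13, 8.33 and 7.89 with GDF9, and at 9.26, 9.02, 8.78 and 8.61 with FSH/EGF. The FSH/EGF arrays lay above all others, and the rise over control was 0.99 ± 0.18 (SE, n = 4 and 4; 1.99-fold; limma adjusted p = 0.00139). A second Psma5 probe set gave 0.63 ± 0.11, and the 3 probe sets of Psma3 gave 0.75 to 0.76. Psma2 was the only one of the 31 Psm-named subunits that was not called. Its values of 8.66, 8.59, 8.67 and 8.62 in control overlapped those of 8.84, 8.65, 8.78 and 8.84 with FSH/EGF, and its difference was 0.15 (95% interval -0.02 to 0.31; limma adjusted p = 0.17).

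All 7 constitutive genes of the beta ring rose, with a median of 0.48, from 0.26 for Psmb1 to 0.78 for Psmb2. The ring holds the cutting subunits Psmb5, with chymotrypsin-like activity, Psmb6, with caspase-like activity, and Psmb7, with trypsin-like activity. Psmb6 was the most even of these: 9.72, 9.74, 9.73 and 9.66 in control, 9.95, 9.59, 9.85 and 9.80 with GDF9, and 10.30, 10.35, 10.21 and 10.18 with FSH/EGF. It rose by 0.55 ± 0.08 over control (limma adjusted p = 0.000213). Psmb5 read 9.12, 9.21, 9.10 and 9.41 in control, 9.58, 9.49, 9.13 and 9.13 with GDF9, and 9.77, 9.77, 9.59 and 9.55 with FSH/EGF. It rose by 0.46 ± 0.12 (limma adjusted p = 0.0101), and after a further quantile normalization the difference was 0.23 and not called (adjusted p = 0.184). Psmb7 was 9.43, 10.00, 9.86 and 10.01 in control, 10.22, 9.51, 9.86 and 9.93 with GDF9, and 10.60, 10.50, 10.26 and 10.18 with FSH/EGF. It rose by 0.56 ± 0.16 (limma adjusted p = 0.0215), and without control array 1, its lowest, the difference was 0.43 with an adjusted p of 0.053. The gene table also names pseudogenes of Psma5, Psmb5, Psmb6 and Psmb7, and which copies the probes read was not tested.

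**Figure D2:**
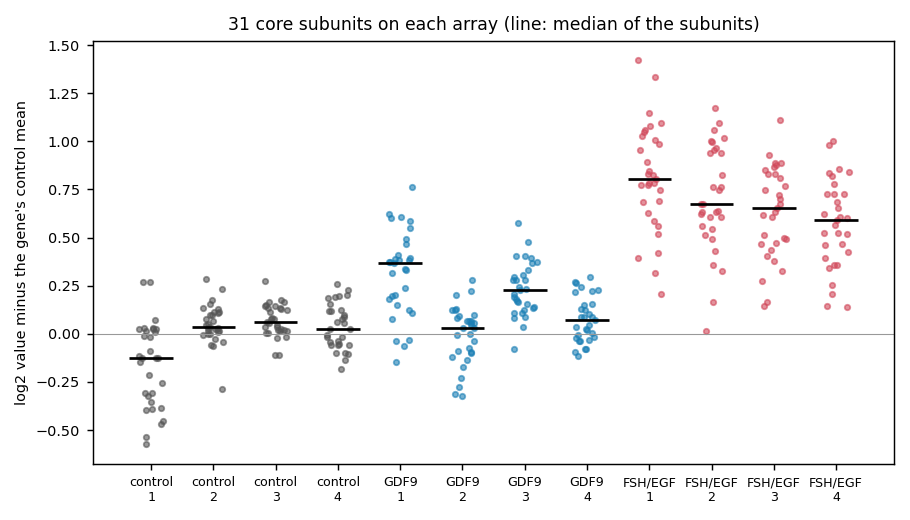
Values of the 31 core and 19S subunits on each of the 12 arrays, as differences from each gene's control mean on the log2 scale, with the median of the subunits as a line. The medians were -0.13 to 0.06 on the control arrays, 0.03 to 0.37 on the GDF9 arrays and 0.59 to 0.80 on the FSH/EGF arrays.

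The 17 Psm-named genes of the 19S particle all rose, with a median difference of 0.82, and the 14 genes of the 20S core had one of 0.55. Their ranges overlapped, at 0.25 to 1.17 and 0.15 to 0.99, and the difference between the particles was not tested. The 6 ATPases of the base rose by 0.65 for Psmc1 to 0.94 for Psmc4, which had the smallest adjusted p of all 50 genes (limma, 5.47e-07). The ATPase Psmc5 stood at 8.61, 9.02, 9.07 and 8.98 in control, 9.41, 8.69, 9.09 and 8.84 with GDF9, and 10.00, 9.92, 9.69 and 9.76 with FSH/EGF. The non-ATPase subunits Psmd1 and Psmd2, the scaffolds of the base, rose by 0.72 and 0.94. Psmd4, a ubiquitin receptor, was 8.19, 8.20, 8.34 and 8.10 in control, 8.54, 8.24, 8.54 and 8.43 with GDF9, and 8.89, 8.88, 8.70 and 8.81 with FSH/EGF, a rise of 0.61 ± 0.08.

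In the lid all 8 Psm-named genes rose, with a median of 0.86. Psmd7, the partner of the deubiquitinase Psmd14, had the largest rise of the 31 subunits. Its values were 8.50, 8.74, 8.74 and 8.53 in control, 9.23, 8.59, 8.81 and 8.89 with GDF9, and 10.05, 9.80, 9.74 and 9.61 with FSH/EGF. It rose by 1.17 ± 0.13 (2.25-fold; limma adjusted p = 2.36e-05) and was the only one of the 31 to pass 2-fold. Psmd14 itself, which cuts ubiquitin from the substrate, rose by 0.90 ± 0.19. Psmd6, a structural subunit of the lid, read 7.20, 7.69, 7.77 and 7.71 in control, 8.06, 7.72, 8.07 and 7.89 with GDF9, and 8.65, 8.65, 8.52 and 8.45 with FSH/EGF, a rise of 0.97 ± 0.13. Psmd11, which joins lid and base, was steady within groups: 9.24, 9.22, 9.23 and 9.15 in control, 9.62, 9.30, 9.58 and 9.48 with GDF9, and 10.10, 9.97, 10.02 and 10.03 with FSH/EGF. It rose by 0.82 ± 0.07 (limma adjusted p = 3.62e-06). The smallest rise among these 8 was that of Psmd8, at 0.25 ± 0.08. Psmd3, Psmd12 and Psmd13, the others of the 8, rose by 0.62, 0.90 and 0.66.

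The arrays left out moved these counts little. Of the 31 subunits, 28 were called higher without control array 1 and 26 without control arrays 1 and 4. After a further quantile normalization 23 were called, with a median of 0.44, and 30 of 31 differences were above 0. With equal array medians all 31 were called.

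Of the assembly chaperones, the 3 Psmd genes that serve the base rose and none of the 4 Psmg genes that serve the core did. Psmd5, Psmd9 and Psmd10 hold the ATPases while the base is built, and all 3 rose. Psmd5 had the largest rise of the 50 genes. It stood at 6.97, 7.03, 6.65 and 7.06 in control, 7.20, 6.72, 7.22 and 7.01 with GDF9, and 8.40, 8.12, 8.12 and 8.02 with FSH/EGF. The groups were far apart, and the rise was 1.24 ± 0.13 (2.36-fold; limma adjusted p = 1.15e-05). Psmd10, also known as gankyrin, was 6.32, 6.83, 6.83 and 7.18 in control, 7.24, 6.45, 6.96 and 6.95 with GDF9, and 8.00, 7.92, 7.57 and 7.54 with FSH/EGF. It rose by 0.97 ± 0.19 (1.96-fold; limma adjusted p = 0.00234), and Psmd9 rose by 0.39 ± 0.09.

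The Psmg genes encode the chaperones that build the alpha ring. Psmg2, which works as a pair with Psmg1, read 5.98, 6.33, 6.29 and 6.39 in control, 6.57, 6.02, 6.35 and 6.38 with GDF9, and 5.99, 5.99, 5.85 and 5.56 with FSH/EGF. Its FSH/EGF values were low, and the upper ones met the lowest control array. It fell by 0.40 on the log2 scale (SE 0.13; limma adjusted p = 0.0416), and the call was lost in 11 of 23 alternatives. Psmg4, the partner of Psmg3, was 6.06, 5.83, 6.02 and 6.17 in control, 6.02, 5.95, 5.83 and 5.91 with GDF9, and 5.65, 5.65, 5.81 and 5.56 with FSH/EGF. It fell by 0.35 on the log2 scale (SE 0.09; limma adjusted p = 0.00782), with no overlap, and without control arrays 1 and 4 its adjusted p was 0.0785. Psmg1 and Psmg3 were not called, at differences of 0.21 and -0.17 (limma adjusted p = 0.167 and 0.304). Pomp, the chaperone that guides the beta ring and lies outside the Psm symbols, rose by 1.02 ± 0.09, from 9.14 to 9.32 in control to 10.14 to 10.29 with FSH/EGF.

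**Figure D3:**
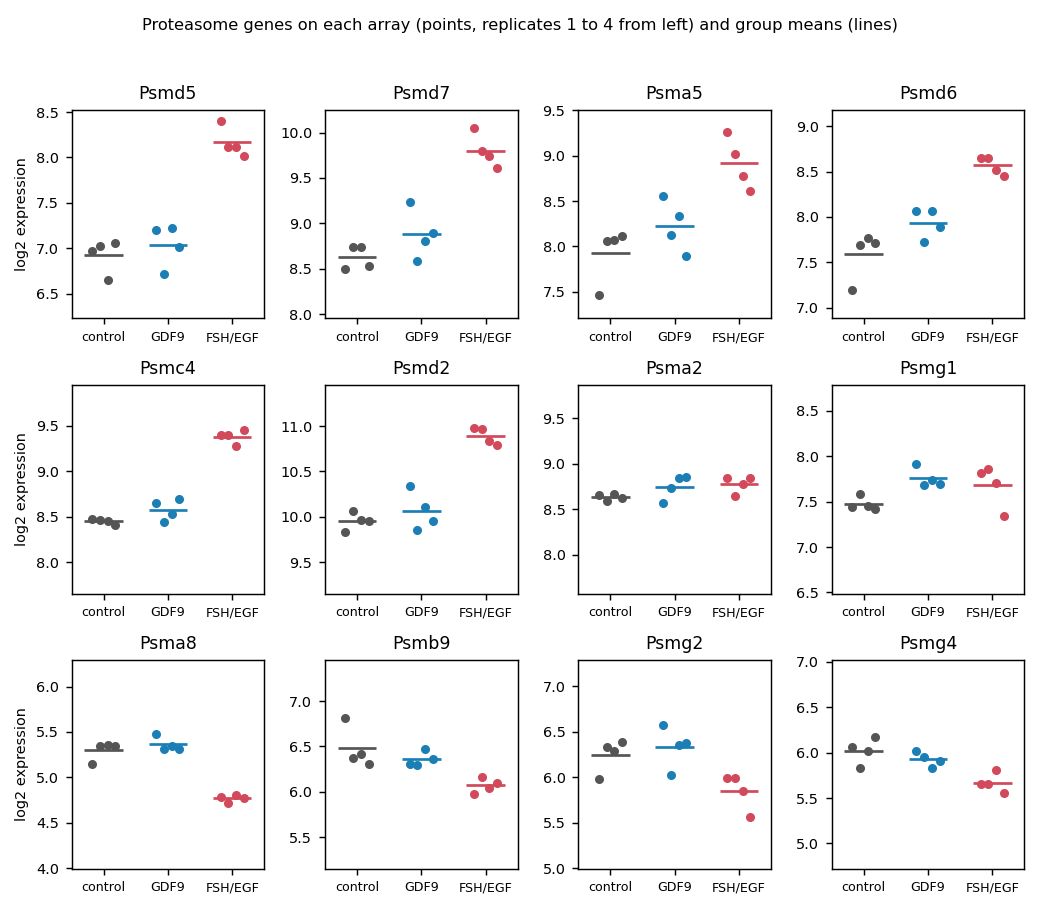
Log2 values of selected proteasome genes on every array, by group (control, GDF9 and FSH/EGF; replicates 1 to 4 from left to right in each group), with a bar at each group mean; every panel spans the same number of log2 units. FSH/EGF arrays lie above the other groups for Psmd5 and Psmd7 and below them for Psma8.

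Of the 3 immunoproteasome genes, 2 fell and 0 rose. Psmb9 replaces Psmb6, Psmb10 replaces Psmb7 and Psmb8 replaces Psmb5 in the assembled core. Psmb9 stood at 6.81, 6.37, 6.42 and 6.31 in control, 6.31, 6.30, 6.47 and 6.36 with GDF9, and 5.98, 6.16, 6.04 and 6.10 with FSH/EGF. It fell by 0.41 on the log2 scale (SE 0.10; limma adjusted p = 0.00945), with no overlap between the groups. Psmb10 was 6.69, 6.40, 6.35 and 6.28 in control, 6.66, 6.36, 6.50 and 6.39 with GDF9, and 6.31, 6.09, 5.96 and 6.11 with FSH/EGF. It fell by 0.31 on the log2 scale (SE 0.11; limma adjusted p = 0.0439), 1 FSH/EGF array overlapped the controls, and the call was lost in 12 of 23 alternatives. Psmb8 read 5.68, 5.24, 5.18 and 5.16 in control, 5.41, 5.30, 5.30 and 5.05 with GDF9, and 5.19, 5.16, 5.19 and 5.10 with FSH/EGF, below the median of all probe sets in each group. Its difference of -0.16 was not called (95% interval -0.40 to 0.09; limma adjusted p = 0.33).

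All 3 immunoproteasome genes were highest, within the controls, on control array 1. Without that array the differences were -0.03 for Psmb8, -0.30 for Psmb9 and -0.23 for Psmb10, and of these only Psmb9 was called. The mean of the 10 leukocyte markers was 5.05 on control array 1, 4.83 to 4.95 on the other controls, 4.74 to 5.01 with GDF9 and 4.87 to 4.92 with FSH/EGF. Of the 10 markers, 2 rose with FSH/EGF, 0 fell and the median difference was -0.17. Their part in the immunoproteasome values was not tested.

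The gap between each immunoproteasome gene and its constitutive counterpart was taken on each array as a log2 difference between probe sets and compared only between groups. The gap of Psmb9 to Psmb6 was -3.38 to -2.91 in control, -3.64 to -3.29 with GDF9 and -4.33 to -4.07 with FSH/EGF. It was 0.95 lower on the log2 scale with FSH/EGF than in control (1.94-fold). For Psmb10 and Psmb7 the change was -0.87, and for Psmb8 and Psmb5 it was -0.62. In all 3 the FSH/EGF arrays lay below every control array, which gives p = 0.0286 in a two-sided exact permutation test (n = 4 and 4), the smallest this design allows, and an adjusted p of 0.0429 over 9 comparisons. In the deposited values the larger part of each FSH/EGF change was the rise of the constitutive gene, by 0.46 for Psmb5, 0.55 for Psmb6 and 0.56 for Psmb7. The differences of Psmb8, Psmb9 and Psmb10 were -0.16, -0.41 and -0.31. With GDF9 the changes of the gaps were -0.20, -0.01 and -0.17 (exact permutation test, adjusted p = 0.294, 0.971 and 0.482). After a further quantile normalization the adjusted p of the FSH/EGF changes was 0.0643 for the first pairs and 0.154 for Psmb8 and Psmb5, where the change was -0.30. In that setting the gap of Psmb9 to Psmb6 changed by -0.84. Psmb6 rose by 0.39 and Psmb9 fell by 0.45 on the log2 scale, so the fall was the larger part there.

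**Figure D4:**
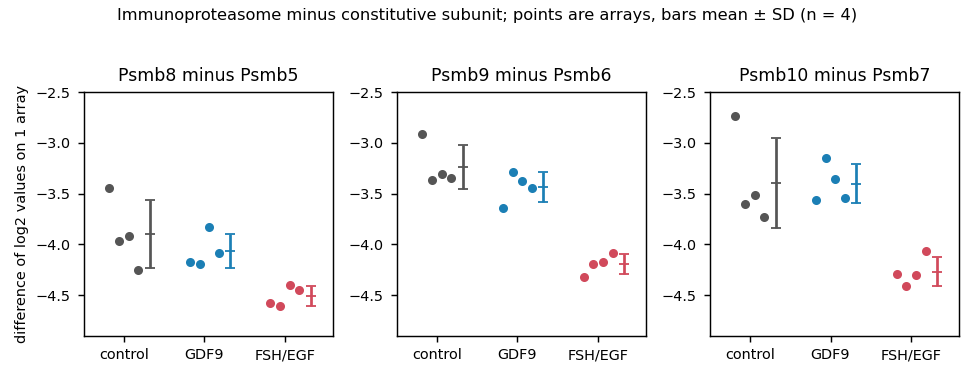
Log2 difference on each array between an immunoproteasome gene and the constitutive subunit it replaces (Psmb8 minus Psmb5, Psmb9 minus Psmb6, Psmb10 minus Psmb7), by group, with the mean and SD of each group as bars. FSH/EGF arrays lie below all control arrays in each panel, at -4.33 to -4.07 against -3.38 to -2.91 for Psmb9 minus Psmb6.

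Of the activators that open the core without the 19S particle, 3 of 4 rose. Psme3, the nuclear PA28 gamma, stood at 8.37, 8.43, 8.49 and 8.90 in control, 9.03, 8.44, 8.73 and 8.75 with GDF9, and 9.19, 9.21, 9.18 and 8.99 with FSH/EGF, a rise of 0.60 ± 0.14 (limma adjusted p = 0.00527). Psme4, the activator PA200, was 8.42, 9.10, 8.99 and 9.17 in control, 9.24, 8.89, 8.99 and 9.17 with GDF9, and 9.42, 9.36, 9.31 and 9.35 with FSH/EGF. Its rise of 0.44 ± 0.14 (limma adjusted p = 0.0345) was 0.28 without control array 1, and the call was lost in 8 of 23 alternatives. Psme1 and Psme2 form the interferon-inducible PA28 ring. Psme1 read 9.41, 9.27, 9.07 and 9.06 in control, 9.31, 9.31, 9.24 and 9.16 with GDF9, and 9.46, 9.51, 9.55 and 9.45 with FSH/EGF, a rise of 0.29 ± 0.08 (limma adjusted p = 0.0212) that was 0.06 after a further quantile normalization (adjusted p = 0.705). Psme2 was 7.93, 7.90, 7.77 and 7.76 in control, 8.26, 8.00, 8.01 and 7.69 with GDF9, and 8.22, 8.16, 8.21 and 7.96 with FSH/EGF. All its FSH/EGF arrays exceeded the controls, but its difference of 0.30 was not called (limma adjusted p = 0.0615), and it was called in 9 of 23 alternatives. The inhibitor gene Psmf1, at 7.10, 6.76, 6.98 and 6.80 in control, 7.02, 6.88, 6.89 and 7.12 with GDF9, and 7.14, 6.96, 6.96 and 6.99 with FSH/EGF, was not called (difference 0.10, 95% interval -0.10 to 0.30).

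The largest fall was that of Psma8, an alpha subunit known from the testis, where it takes the place of Psma7. It stood at 5.15, 5.34, 5.36 and 5.34 in control, 5.48, 5.31, 5.35 and 5.31 with GDF9, and 4.78, 4.72, 4.80 and 4.77 with FSH/EGF. It fell by 0.53 on the log2 scale (SE 0.07; 1.44-fold; limma adjusted p = 8.65e-05), kept its call in 23 of 23 alternatives, and lay below the median of all probe sets in every group. No detection call per probe set was used here. Psmb11, the thymus-specific beta subunit, was also near that median, at 5.36 to 5.77 in control and 5.28 to 5.49 with FSH/EGF, and was not called (difference -0.19). Genes below the median signal of all genes were called lower in 12.8% of cases and higher in 5.95%, with a median difference of -0.12. Psmc3ip, a cofactor of meiotic recombination, and Psme3ip1, a binding partner of Psme3, match by symbol but are no proteasome subunits; their differences were -0.19, not called, and 0.21, called higher (limma adjusted p = 0.082 and 0.0344).

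With GDF9 none of the 50 genes passed the test against control, which used the same control arrays as the FSH/EGF comparison. The call rate over all genes was 0%, and the smallest adjusted p among the 50 was 0.971 (limma). At an unadjusted p under 0.05, 4 proteasome genes were higher and 0 lower, where 2.66% of all genes were higher and 2.29% lower. These were Psmd11 at 0.28 ± 0.07, Psmd6 at 0.34 ± 0.13, Psmd4 at 0.23 ± 0.08 and the chaperone Psmg1 at 0.29 ± 0.11. The GDF9 arrays all exceeded the controls for Psmd11 and Psmg1, against 1.09% of all genes. Psmg1 read 7.44, 7.58, 7.45 and 7.42 in control and 7.92, 7.68, 7.74 and 7.69 with GDF9. The difference was above 0 for all 31 core and 19S subunits, with a median of 0.13, from 0.04 to 0.34. Without control array 1 it was above 0 for 27 of 31, with a median of 0.09. After a further quantile normalization it was above 0 for 30 of 31, with a median of 0.07. Over all 19938 genes the difference was above 0 for 8709, with a median of -0.02. For genes at or above the median signal the median was 0.04. The subunits varied together between arrays, so their signs are not separate observations. The 95% interval of the difference lay above 0 for 4 of the 50 genes, at 0.12 to 0.45 for Psmd11, 0.07 to 0.62 for Psmd6, 0.04 to 0.41 for Psmd4 and 0.05 to 0.52 for Psmg1, with no adjustment over genes. It spanned 0 for the other 46, as for Psmd7 (-0.03 to 0.54) and Psmc4 (-0.02 to 0.28).

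The subunits also varied between arrays of 1 group. The median of the 31 subunits relative to the control mean was 0.37, 0.03, 0.23 and 0.08 on the 4 GDF9 arrays and 0.80, 0.67, 0.65 and 0.59 on the FSH/EGF arrays. GDF9 array 1 held the highest GDF9 value for 19 of the 31 subunits and GDF9 array 2 the lowest for 19. In the FSH/EGF group, array 1 was highest for 27 and array 4 lowest for 22. Many subunits thus shared their highest or lowest array within a group. The median deviation of all genes on each array stayed within 0.02, but normalization holds that measure near 0. It therefore cannot show whether the pattern is particular to the subunits, and the same counts were not made over all genes.

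FSH/EGF was also compared with GDF9, a comparison that shares the FSH/EGF arrays with the one against control. Of the 50 genes, 28 were higher with FSH/EGF and 4 lower, where 18.6% of all genes were called higher and 10.5% lower. The FSH/EGF arrays lay above every GDF9 array for 30 genes and below for 5, against 20.1% and 13.5% of all genes. Of the 31 subunits 24 were higher and 0 lower, with a median of 0.57. The 19S particle had 16 of 17 genes higher and the 20S core 8 of 14. The largest differences were those of Psmd5 at 1.13 ± 0.13, Psmd7 at 0.92 ± 0.13, Psmd10 at 0.86 ± 0.19 and Psmc5 at 0.84 ± 0.15. The 4 lower genes were Psma8, Psmg2, Psmb10 and Psmg4, by -0.60, -0.48, -0.36 and -0.26 (limma adjusted p = 3.56e-05, 0.0204, 0.0269 and 0.045). Psmb9 was lower on every FSH/EGF array, but its difference of -0.29 was not called (limma adjusted p = 0.0589).

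The counts of lower genes changed when single arrays were left out. The 5 against control became 3 when control array 2 or 3, GDF9 array 3 or 4, or FSH/EGF array 3 or 4 was left out, and 2 without control arrays 1 and 4. The 4 against GDF9 became 2 without GDF9 array 1 or 4 or FSH/EGF array 2, and 1 without FSH/EGF array 4. With equal array medians the counts were 3 and 1. That scaling moved the split over all genes too: of the genes called against control, 72.5% were higher with it and 59.4% without.

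Beside the lists that follow, 21.9% of all genes and 37.8% of those at or above the median signal were called higher with FSH/EGF, and 14.9% and 17.1% lower. Among 15 measured genes, other than the Psm genes, whose products assemble, bind or, as Sem1, belong to the proteasome, 10 rose with FSH/EGF and 0 fell, with a median of 0.68. Usp14, a deubiquitinase bound to the base, had the largest rise of these. It was 6.95, 7.48, 7.60 and 7.85 in control, 8.20, 7.56, 8.02 and 7.63 with GDF9, and 9.12, 9.19, 9.02 and 9.02 with FSH/EGF, a rise of 1.62 ± 0.18 (limma adjusted p = 2.03e-05). Zfand5, which binds the proteasome and ubiquitin, rose by 1.13, and Uchl5, the other deubiquitinase of the base, by 1.12. The COP9 signalosome, a complex whose subunits are related to those of the lid, had 8 of 9 genes higher and 0 lower, with a median of 0.46 beside 0.86 for the lid. The difference between these complexes was not tested. Its largest rise was that of Cops3, at 0.80. Of 13 chaperonin and prefoldin genes, which form other large assemblies for folding, 5 rose and 0 fell, with a median of 0.40 and Vbp1 the highest at 0.70. Of 10 enzymes that act on ubiquitin or on the related NEDD8, 5 rose and 0 fell. Among them were the ubiquitin-activating enzyme Uba6, by 1.14, and the NEDD8-activating Uba3, by 1.05.

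Of 17 regulators known to act on proteasome genes or with NRF1 and NRF2, 10 rose and 0 fell, with a median of 0.31. Nfe2l1, which encodes NRF1, stood at 9.46, 9.66, 9.47 and 9.60 in control and 9.62, 9.73, 9.65 and 9.61 with FSH/EGF and was not called (difference 0.10; limma adjusted p = 0.382). NRF1 is controlled after translation, so its RNA does not give its activity. Nfe2l2, which encodes the related NRF2, rose by 0.39 (limma adjusted p = 0.035). Stat3 rose from 7.60 to 7.91 in control to 9.45 to 9.61 with FSH/EGF, a rise of 1.80. Syvn1, a ubiquitin ligase of the endoplasmic reticulum, rose by 0.92, the repressor Bach1 by 0.74 and Vcp, the segregase that extracts NRF1 from that membrane, by 0.50. Of 11 antioxidant genes known as NRF2 targets, 7 rose and 2 fell. The cystine transporter Slc7a11 rose by 2.99, the glutathione transferase Gsta4 by 2.96, Srxn1 by 2.11 and Taldo1 by 1.34, while Gclm fell by 1.33 on the log2 scale and Gstm1 by 0.69.

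The class I antigen presentation and interferon genes moved both ways, as 4 of 11 rose and 4 fell. Tap1, the peptide transporter whose gene lies between Psmb9 and Psmb8 on chromosome 17, read 5.86 to 6.12 in control and 5.33 to 5.70 with FSH/EGF. It fell by 0.44 on the log2 scale (limma adjusted p = 0.00592). Nlrc5, an activator of class I genes, fell by 0.69 on the log2 scale, the peptidase Erap1 by 0.70 and the interferon-induced Bst2 by 1.24, while Irf9 rose by 0.77, the class I light chain gene B2m by 0.58, the tapasin gene Tapbp by 0.35 and the interferon-induced Ifi35 by 0.34. Of 17 autophagy and lysosome genes, the other main route of degradation, 9 rose and 1 fell: Ctsb, a lysosomal protease, rose by 1.44 and Atg12 fell by 1.14 on the log2 scale. With GDF9, 0 genes of these 8 lists were called. The lists were chosen with earlier results of these data known, so their counts describe these arrays only.

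**Figure D5:**
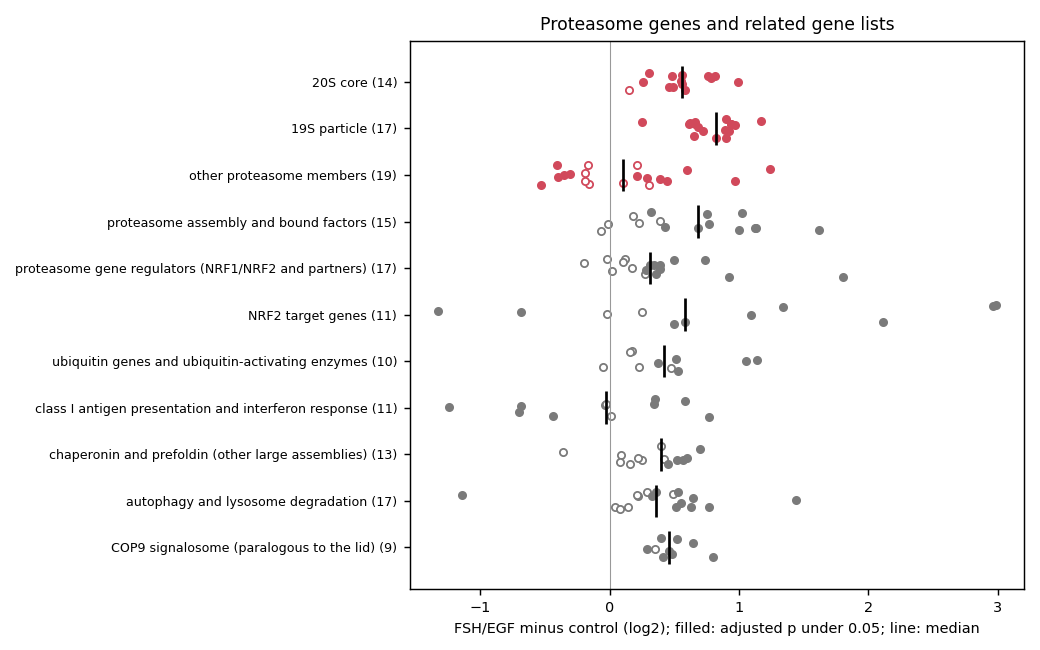
FSH/EGF minus control differences (log2) of the genes in the pathway lists beside the proteasome core, with each list's median as a line. Filled points passed the limma adjusted p of 0.05. The medians were 0.55 for the 20S core, 0.82 for the 19S particle, 0.68 for the assembly and bound factors, 0.46 for the COP9 signalosome and -0.03 for the class I and interferon genes.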

How the data were processed

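Total RNA of cumulus cells was hybridised to 12 arrays, 4 per group. The authors had normalized the deposited values, which are on a log2 scale (2.92 to 14.29). The submitters' processing notes list RMA, Partek and GCOS but give no version or role. The annotation gave 1 symbol for 21789 of 35399 rows, several for 1621 and did not list 11989. All 50 members matched the gene table by Entrez identifier. Group means over all 12 arrays were compared with limma 3.58.1 in R 4.3.3, with Benjamini-Hochberg adjustment over all 35399 rows and a threshold of 0.05. Intervals are at 95%. The model was checked on data with known answers. Arrays give no read depth, and their number limits the precision. No pair of arrays held identical values.

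The members and gene lists were chosen with earlier results of these data known. Genes named with values on every array were members called against the majority, the 4 largest rises and falls per comparison (or the 3 smallest p where none passed), the cutting, activator and inhibitor genes, Psmd10, and members below the median of all probe sets. Pathway genes were named up to 4 per list. Psma2, Psmb1, Psmb2, Psmb11, Psmc1, Psmc4, Psmd8, Psmd14, Psmg1, Psmg3 and Ptprc, Cd3e, Foxl2, Fshr, Slc38a3, Cdh5, Tek, Sem1, Nfe2l1, Nfe2l2, Gclm, Gstm1, Tap1, B2m, Tapbp and Ifi35 were singled out after their values were seen. Alternatives were a variance trend, robust moderation, only the groups compared, array weights, a further quantile normalization, equal array medians, omission of the dimmest 40% of rows, the mean over probe sets, rows with 1 symbol only, a replicate block, and leaving out each array in turn. Leaving out control arrays 1 and 4 together was added after the data were seen. Same-numbered arrays were not treated as pairs.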

Additional observations from a re-analysis of the deposited data

Results flagged for a closer look

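In groups of 4, an array was singled out when its gap to the nearest other array took up most of the group's range, by Dixon's criterion. Chance does this in about 1 in 20 groups. It applied to 13 of 150 groups (50 genes in 3 groups), of which 8 were on control array 1, 3 on FSH/EGF array 1 and 2 on FSH/EGF array 4. On control array 1 the low values were those of Psma1 at 8.31 (other controls 8.70 to 8.75), Psma4 at 8.75 (9.18 to 9.26), Psma5 at 7.46 (8.06 to 8.12), Psma8 at 5.15 (5.34 to 5.36), Psmd6 at 7.20 (7.69 to 7.77) and Psmd12 at 8.02 (8.43 to 8.47). On the same array Psmb3 at 10.04 (9.66 to 9.71) and Psmb8 at 5.68 (5.16 to 5.24) were high. Psmb3 thus stood opposite to most subunits there. On FSH/EGF array 1, Psmc3 at 9.72 (9.54 to 9.57) and Psmf1 at 7.14 (6.96 to 6.99) were high and Psmg3 at 5.84 (up to 6.02 on the others) was low. On FSH/EGF array 4, Psmd1 at 10.03 (10.12 on the others) and Psme3 at 8.99 (9.18 to 9.21) were low.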

How the results depend on the processing

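Among the gaps and the genes named by the rules above, no called result changed sign under the alternatives tried. Of those not called, the Psmf1 difference of 0.10 (FSH/EGF against control) was -0.06 in 1 of 23. The Psmb10 to Psmb7 gap of -0.01 (GDF9 against control) was above 0 in 4 of 15, up to 0.21. The other genes were followed as counts only. With FSH/EGF against control, 41 of the 50 differences were above 0, and 37 after a further quantile normalization. The count of members higher with FSH/EGF than control was 37 and ran from 26 (a further quantile normalization) to 39 (equal array medians), or 31 to 38 with arrays left out; for the 31 subunits it was 30, from 23 to 31, or 26 to 30. Against GDF9 the counts of 28 and 24 ran from 21 to 34 and from 19 to 27. With GDF9 against control 0 members were called in 23 of 23 alternatives. The counts of lower members were less steady: 5 against control became 3 with equal array medians and 2 to 5 with arrays left out, and 4 against GDF9 became 1 with equal array medians, 2 with the replicate block and 1 to 5 with arrays left out. After a further quantile normalization the gaps to the constitutive subunits with FSH/EGF against control were -0.30 for Psmb8, -0.84 for Psmb9 and -0.78 for Psmb10 (exact permutation test, adjusted p = 0.154, 0.0643 and 0.0643), and against GDF9 -0.22, -0.65 and -0.79 (adjusted p = 0.171, 0.0643 and 0.0643). For the Psmb9 and Psmb10 gaps the unadjusted p stayed the smallest that this design allows. Their adjusted p rose because the Psmb8 gaps no longer reached that smallest p. The cause of the other changes was not tested. The replicate number showed no steady pairing of the arrays. In 6 of 12 pairs of same-numbered arrays the correlation of deviations was over 0.1, with a range of -0.39 to 0.22. With 4 arrays per group, this cannot show whether same-numbered arrays were handled together. With the replicate block 34 members were higher and 4 lower than control. Signal near the median of all probe sets limits what can be said of Psma8, Psmb8 and Psmb11. It also limits the falls of Psmg4 and Psmg2, whose FSH/EGF means were 5.67 and 5.85. Those of Psmb9 and Psmb10 were little higher, at 6.07 and 6.12. The medians of the FSH/EGF arrays were 5.41 to 5.44.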
